A study of Homo sapiens with 4 samples.

Results

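The genes described here sense double-stranded RNA inside the cell or carry the interferon response that follows. They are IFIH1, EIF2AK2, OAS1, ADAR, MAVS, IRF3, IRF7, STAT2 and ISG15, 9 genes of 20037 protein-coding genes in the annotation, and a pair of genomic bins was taken as theirs when at least 1 of its bins overlapped the gene body. With that rule 8 of the 9 genes had 77 bin pairs of the 89239 in the table. IRF7 (chromosome 11, 612555 to 615950) had none and was not analysed here.

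Double-stranded RNA in the cytosol is read as a sign of virus infection, and RNA from a cell's own transposable elements can trigger the same sensors. IFIH1 signals through the mitochondrial adaptor MAVS to the transcription factors IRF3 and IRF7, which switch on interferon genes, and secreted interferon then acts through STAT2-containing complexes to raise genes such as ISG15, OAS1 and EIF2AK2. ADAR edits adenosine to inosine in double-stranded RNA and keeps cellular RNA from setting off these sensors.

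Contacts between stretches of chromatin were mapped by Micro-C, a chromosome conformation method that cuts with micrococcal nuclease, in SH-SY5Y, an established human neuroblastoma line. The knockdown cells carried a stable lentiviral shRNA against TDP-43 (2 libraries, TDP43KD_1 and TDP43KD_2), and 2 libraries labelled only as control stood against them; the protocol names an shNC construct beside shTDP-43. Puromycin at 2 µg/mL selected the knockdown cells over 2 weeks, and 1 µg/mL maintained them. The labels give no puromycin treatment for the control libraries and do not say whether these carried shNC. An effect of transduction or selection therefore cannot be told apart from that of the knockdown. The study dealt with TDP-43 deficiency, R-loops, hydroxymethylcytosine and transposable element activation. These libraries show whether chromatin contacts differed between the knockdown and control libraries. The listed pairs held 115168160 and 142424414 contacts in the knockdown libraries, against 158400914 and 163147992 in control. A contact map measures neither RNA nor protein, so it shows no level of these genes' products and gives no check of the cell type by marker expression. Copy number was not measured.

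Each bin spans 50 kb, so a contact belongs to a stretch of chromatin that usually holds other genes too. Levels are in CPM, contacts scaled to library size, after TMM scaling, which also corrects for library composition. Fold changes are knockdown over control on the log2 scale, and a pair is called different at an adjusted p under 0.05 by edgeR's quasi-likelihood test, fitted on the whole table. The fold change drifted with abundance: over all pairs its median was 0.10 in the lowest of 10 abundance classes and -0.21 in the highest, where 62.7% of pairs were called lower. Results are therefore also given from a second fit in which this trend was removed for each library.

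Over the 77 pairs, 11 were lower and 1 was higher in the knockdown. Without knockdown library 1 the count was 4 lower and 0 higher, without knockdown library 2 it was 6 lower and 0 higher, and without control library 1 it was 13 lower and 3 higher. No share of all pairs is given for these reduced fits, so their counts show no instability particular to the members. With all 4 libraries 16.2% of pairs in the whole data differed, 10.5% lower and 5.76% higher. Among the members' pairs the shares were 14.3% and 1.3%, with a median log2 fold change of -0.08 against 0.02 for all pairs. Of the 11 lower pairs, 7 belonged to ISG15, 2 to MAVS, 1 to IRF3 and 1 to ADAR, and the single higher pair belonged to STAT2. With the trend removed, 9 member pairs were lower and 3 higher, against 5.89% and 4.91% of all pairs. Within bins 5 of 14 member pairs were lower and 0 higher, against 14.3% and 7.4% of all within-bin pairs, and between bins 6 of 63 were lower and 1 higher, against 5.84% and 3.76%. The trend-removed fit called 1 within-bin pair lower and 3 higher, against 5.0% and 7.81% of all within-bin pairs. Only 6 of the 12 calls, each a lower pair of ISG15, were made in the same direction in both fits. The groups did not overlap in 52 of the 77 pairs (67.5%), and 56.1% of all pairs showed the same.

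**Figure D1:**
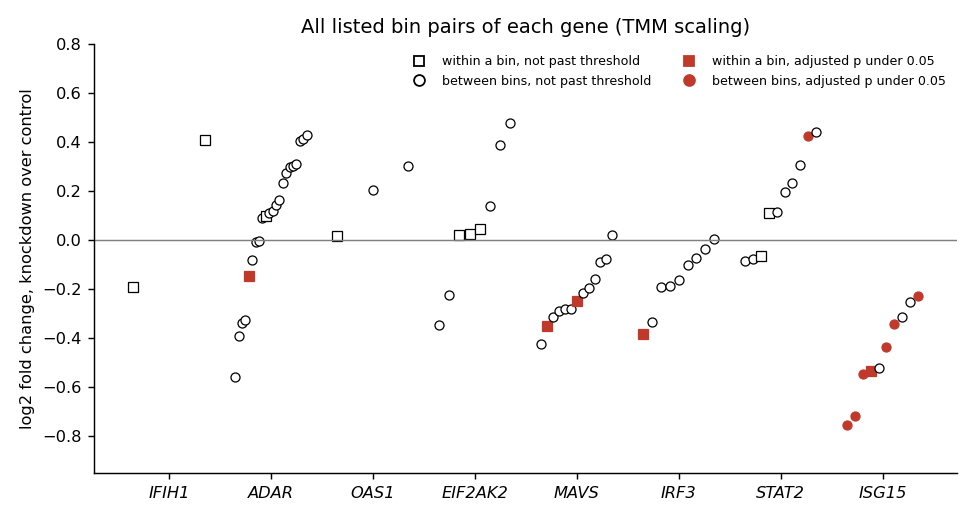
Log2 fold change (knockdown over control, TMM scaling) of each of the 77 bin pairs, by gene and sorted within a gene; squares are contacts within a bin, circles contacts between bins, and filled symbols passed an adjusted p under 0.05. All 10 pairs of ISG15 lie below 0, as do 12 of 13 for MAVS and 8 of 9 for IRF3, while 14 of 22 for ADAR lie above 0.

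ISG15, EIF2AK2 and IFIH1 carried, in the bases at their start, a core letter pattern of the interferon-stimulated response element, the promoter sequence read by STAT2-containing complexes and by IRF proteins. The pattern, GAAA followed by any 2 bases and GAAA again, was searched on both strands of the promoter table of RefSeq (GRCh38.p14; 250 bases before to 50 after each start), where 7 of the 9 members had an entry. It was found in those 3 genes and in 3.57% of the 35116 promoters of the table. Matches in ISG15 began 113 and 107 bases before the start and overlap each other, the match in EIF2AK2 began 6 bases before it and runs across it, and those in IFIH1 began 159, 153 and 21 bases before it, the first and second overlapping on the opposite strand. ADAR, MAVS, OAS1 and STAT2 had no match in this window. Only this exact spacing was searched, so the lack of a match does not show the lack of a response element. In OAS1, for example, GAAA and GAAA lie closer together near the start than the pattern allows. The stretches below run 5′ to 3′ on the strand of the gene, from 170 bases before to 5 after the start, and are shown because they are the members whose promoters hold the match; capitals mark the matches.
ISG15 (chr1:1013327-1013501, plus strand): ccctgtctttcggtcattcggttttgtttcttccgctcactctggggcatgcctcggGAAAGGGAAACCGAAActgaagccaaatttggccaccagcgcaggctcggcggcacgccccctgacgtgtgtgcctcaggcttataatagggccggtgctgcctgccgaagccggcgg
EIF2AK2 (chr2:37156976-37157150, minus strand): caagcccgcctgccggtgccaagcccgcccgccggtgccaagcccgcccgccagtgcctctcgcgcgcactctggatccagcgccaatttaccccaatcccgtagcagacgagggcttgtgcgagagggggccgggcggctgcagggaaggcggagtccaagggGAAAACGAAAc
IFIH1 (chr2:162318680-162318854, minus strand): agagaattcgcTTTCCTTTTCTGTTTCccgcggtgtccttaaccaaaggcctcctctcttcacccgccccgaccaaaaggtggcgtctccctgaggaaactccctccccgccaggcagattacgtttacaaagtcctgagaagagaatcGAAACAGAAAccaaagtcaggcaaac

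The contact within the bin of the gene start was set side by side over all 8 genes, whose bins have the same length. Levels were not corrected for copy number or for how well reads map to a bin. The order of genes below therefore describes scaled counts only. For ISG15 this level was 100.0 ± 4.38 CPM in the knockdown and 145 ± 12.5 CPM in control, and for IFIH1 it was 6.75 ± 0.663 CPM in the knockdown and 7.72 ± 0.736 CPM in control (SD, n = 2 each). The control level exceeded that of 99.3% of all within-bin pairs for ISG15 and of 51.3% for IFIH1. The order was ISG15, IRF3, MAVS, EIF2AK2, ADAR, OAS1, STAT2 and IFIH1 in both groups. No neighbours in that order overlapped within a group, though OAS1 at 22.8 and 23.7 CPM and STAT2 at 21.6 and 22.3 CPM in the knockdown lay close. The 3 genes with the most abundant start bins were the ones called lower.

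**Figure D2:**
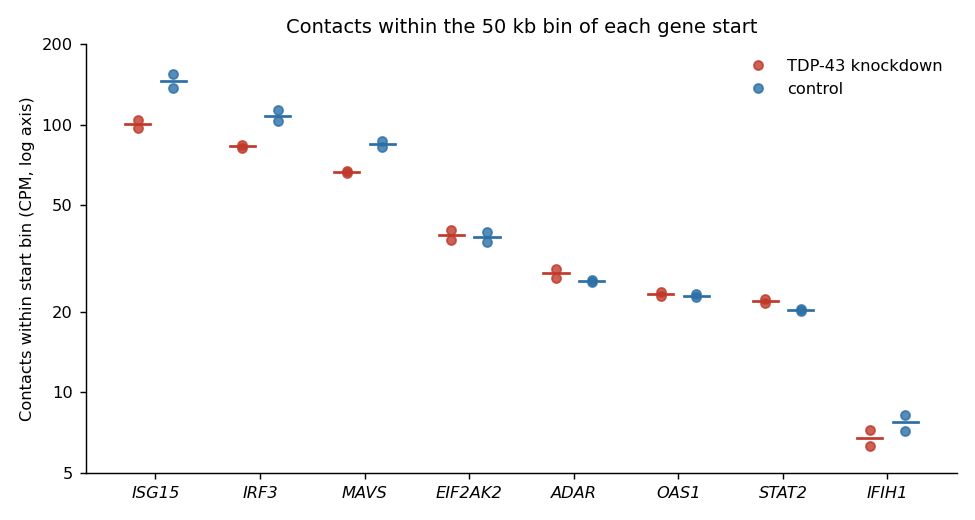
Contacts within the 50 kb bin of each gene start, in CPM on a log axis; points are the 2 libraries of a group, bars their mean, knockdown in red left of control in blue. The knockdown libraries of ISG15, IRF3 and MAVS lie below both control libraries, and those of ADAR and STAT2 lie slightly above.

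Among the sensors, no pair of IFIH1, EIF2AK2 or OAS1 was called with TMM scaling. IFIH1, which encodes the long double-stranded RNA sensor MDA5, spans 51.6 kb of chromosome 2 (162267074 to 162318684) and 2 bins, each listed only with itself. Its start bin, shared with GCA, had 6.28 and 7.22 CPM in the knockdown, against 7.20 and 8.25 CPM in control. The ranges overlapped, and the difference did not pass (log2 fold change -0.19, adjusted p = 0.239, SE 0.11). The other bin, which holds the 3′ part of the gene alone, had 1.72 and 2.38 CPM in the knockdown, against 1.67 and 1.42 CPM in control. There both knockdown libraries were above both control libraries, one of them narrowly, with a log2 fold change of 0.41 (adjusted p = 0.214, SE 0.22). The bins of this gene thus pointed in opposite directions and neither passed.

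EIF2AK2 encodes the kinase PKR, which halts translation when it binds double-stranded RNA, and lies on chromosome 2 (37099210 to 37156980). Contacts within its start bin, shared with CEBPZOS and SULT6B1, were 40.3 and 37.0 CPM in the knockdown, against 39.7 and 36.5 CPM in control. The libraries of the groups interleaved, and the difference did not pass (log2 fold change 0.02, adjusted p = 0.861, SE 0.06, approximate 95% interval -0.09 to 0.13). In the second fit it was 0.17 and passed (adjusted p = 0.012). All pairs of the same abundance class had a median TMM fold change of -0.21. Between bins, the pair of HEATR5B with the 3′ bin of EIF2AK2 had the largest value of the gene, 2.63 and 2.65 CPM in the knockdown against 2.11 and 1.69 CPM in control. Both knockdown libraries lay above both control libraries, but the pair did not pass (log2 fold change 0.48, adjusted p = 0.0904, SE 0.20), except without control library 1 (0.63, adjusted p = 0.0325). Within 1 Mb of the gene, 15.9% of other pairs were higher and 1.59% lower with TMM scaling, and 9.52% and 1.59% in the second fit.

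OAS1 makes the oligoadenylates that activate RNase L, and it shares its only bin (chromosome 12, gene at 112906962 to 112933219) with its relative OAS3. Contacts within the bin were 22.8 and 23.7 CPM in the knockdown, against 23.2 and 22.7 CPM in control. The groups interleaved and did not differ by the test (log2 fold change 0.02, adjusted p = 0.892, SE 0.07, approximate 95% interval -0.11 to 0.15). Contacts with the adjoining bin of OAS2 and OAS3 were 4.27 and 4.26 CPM in the knockdown, against 4.02 and 3.39 CPM in control, and those with the bin of RPH3A on the other side were 3.69 and 3.55 CPM, against 3.42 and 2.45 CPM. In both of these the knockdown libraries lay above control, and neither passed (log2 fold changes 0.20 and 0.30, adjusted p = 0.382 and 0.220). Without control library 1 the pair with RPH3A passed (0.55, adjusted p = 0.023).

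ADAR, the editing enzyme, had the most listed pairs, 22. Those 50 to 250 kb apart mostly differed in direction from those 400 kb or more apart. The gene (chromosome 1, 154582057 to 154627997) spans 2 bins. The start bin holds no other protein-coding gene, and its contacts within the bin were 26.8 and 28.8 CPM in the knockdown, against 26.3 and 25.8 CPM in control. Both knockdown libraries were above both control libraries by little. The difference did not pass with TMM (log2 fold change 0.10, adjusted p = 0.305, SE 0.06), while the second fit gave 0.18 and passed (adjusted p = 0.0286). Of 35 other within-bin pairs within 1 Mb of ADAR, 42.9% were also higher in the second fit, against 7.81% of all within-bin pairs.

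The 3′ bin of ADAR, shared with CHRNB2 and UBE2Q1, gave opposite calls in the TMM fit and the trend-removed one. Contacts within it were 70.4 and 68.1 CPM in the knockdown, against 77.0 and 76.5 CPM in control. The groups did not overlap with TMM scaling, where the pair was called lower (log2 fold change -0.15, adjusted p = 0.0465, SE 0.05). The second fit called it higher (0.14, adjusted p = 0.00765). Other within-bin pairs within 1 Mb turned in the same way. With TMM scaling 40.0% of them were lower and 5.71% higher, and in the second fit 2.86% were lower and 42.9% higher. The direction of the contact within the 3′ bin thus rests on the scaling. Without either knockdown library the TMM call was lost (adjusted p = 0.311 and 0.491).

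Between 50 and 250 kb from ADAR, where most partners lie in KCNN3, a potassium channel gene, 12 of 13 pairs had a log2 fold change above 0 (-0.01 to 0.43, none past the threshold). At 400 kb or more, over 4 pairs with the bins of SHC1, PYGO2, ZBTB7B, ADAM15 and EFNA3, all were below 0 (-0.56 to -0.33). The pair of the start bin with the bin of ADAM15 and EFNA3, 450 kb away, had 1.45 and 1.40 CPM in the knockdown, against 2.01 and 2.17 CPM in control. Both knockdown libraries were well below both control libraries. TMM scaling left it short of the threshold (log2 fold change -0.56, adjusted p = 0.0704, SE 0.22), and the second fit called it (-0.66, adjusted p = 0.0389). The second fit also called the pair of the 3′ bin with the bin of SHC1 and PYGO2, 400 kb away (-0.46, adjusted p = 0.0409). Over all pairs 200 kb or more apart the median log2 fold change was -0.12, or -0.20 with the trend removed. Longer contacts thus had lower values over the whole data as well. At that same limit 4 of the 11 ADAR pairs lay above 0, with medians of -0.01 and -0.09. The ADAR pairs at 300 and 350 kb had values of -0.08, -0.004 and 0.14 with TMM scaling. Over all pairs 50 to 150 kb apart 18626 of 31536 were above 0 with TMM scaling. Their median was 0.06, or -0.01 with the trend removed. For ADAR all 9 pairs at 50 to 150 kb were above 0, with medians of 0.30 and 0.20. These distance limits were drawn after the values were seen, and pairs of 1 bin share that bin.

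**Figure D3:**
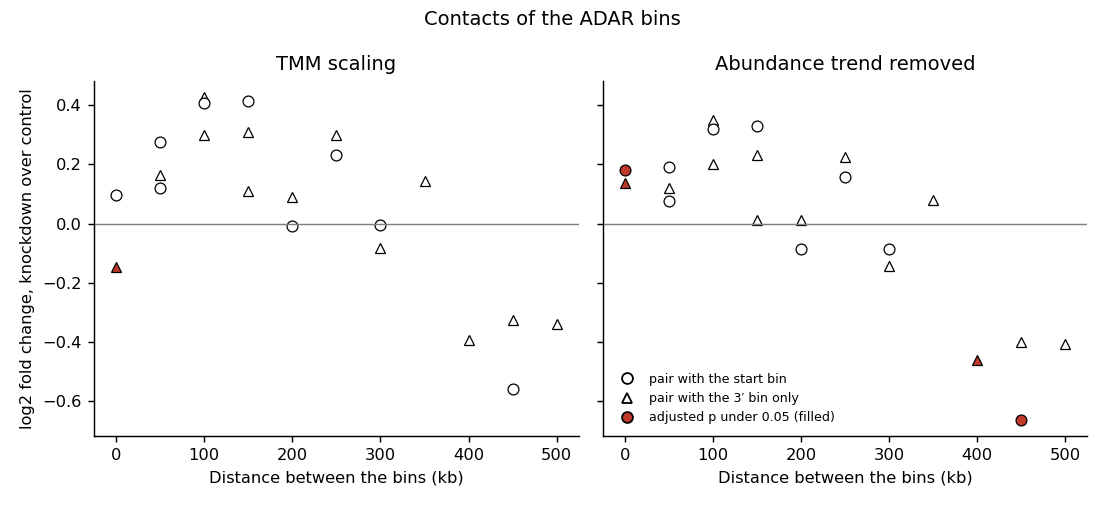
Log2 fold change (knockdown over control) of the 22 pairs of the ADAR bins by the distance between the bins in kb, with TMM scaling on the left and with the abundance trend removed on the right; circles include the start bin, triangles only the 3′ bin, and filled symbols passed. Values from 50 to 250 kb lie above 0 in 12 of 13 pairs and those at 400 kb or more below 0 in all 4, in both panels.

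MAVS, the adaptor that joins IFIH1 to IRF3, lies on chromosome 20 (3846834 to 3876118), 3.85 Mb from the chromosome end. Contacts within its start bin, shared with AP5S1 and CDC25B, were 66.2 and 66.9 CPM in the knockdown, against 82.4 and 87.2 CPM in control. The groups lay well apart, and contacts fell by 0.35 on the log2 scale (adjusted p = 7.41e-08, SE 0.05). The second bin of the gene, shared with PANK2, had 45.8 and 46.1 CPM in the knockdown, against 52.8 and 56.5 CPM in control, also without overlap (log2 fold change -0.25, adjusted p = 0.000239, SE 0.06). The second call was lost without either knockdown library (adjusted p = 0.0734 without library 1 and 0.0522 without library 2). In the second fit their log2 fold changes were -0.05 and -0.04, and neither passed (adjusted p = 0.379 and 0.627).

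None of the 11 pairs between bins of MAVS passed in either fit, although 10 of them had a value below 0 with TMM scaling. The lowest, between the second bin and that of SIGLEC1 and ADAM33 at 200 kb, had 1.67 and 2.12 CPM in the knockdown, against 2.61 and 2.49 CPM in control. Both knockdown libraries were below control there (log2 fold change -0.42, adjusted p = 0.145, SE 0.20). Within 1 Mb of MAVS, 13.1% of other pairs were lower and 5.95% higher with TMM scaling, against 1.19% lower and 2.38% higher in the second fit. Of the 39 within-bin pairs among them, 25.6% were lower and 7.69% higher with TMM scaling, against 0.0% and 2.56% in the second fit.

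IRF3, the transcription factor that MAVS signalling activates, is a gene of 6.29 kb on chromosome 19 (49659572 to 49665857) in a bin with 5 other protein-coding genes: ADM5, BCL2L12, CPT1C, PRMT1 and SCAF1. Contacts within the bin were 81.8 and 84.2 CPM in the knockdown, against 103 and 113 CPM in control. The groups were clearly apart, and contacts fell by 0.38 (log2; adjusted p = 5.89e-09, SE 0.06). The second fit gave -0.04, which did not pass (adjusted p = 0.564). Among all within-bin pairs with 6 or more genes, 86.0% were lower with TMM scaling and 25.4% in the second fit. Its 8 pairs between bins, none of which passed in either fit, had log2 fold changes from -0.34 to 0.01. Within 1 Mb of the gene 29.6% of other pairs were lower with TMM scaling and 10.4% in the second fit, and none was higher in either. Of the 39 within-bin pairs among them, 79.5% were lower with TMM scaling (median -0.28) and 20.5% in the second fit (median -0.04).

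IRF7, the factor that amplifies interferon production, has no value of its own here. The other listed pairs within 1 Mb of it, near the end of the short arm of chromosome 11, were lower in 59.7% of 72 cases, with none higher, and gave the same shares with the trend removed.

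STAT2, which joins the interferon receptor to transcription, lies on chromosome 12 (56341597 to 56360107) across 2 bins and had the only higher pair. Contacts between its start bin and the adjoining bin of TIMELESS and MIP were 4.83 and 4.61 CPM in the knockdown, against 3.05 and 3.98 CPM in control. Both knockdown libraries exceeded both control libraries, but the control libraries differed from each other by more than the groups' nearest libraries did. The pair was called higher (log2 fold change 0.42, adjusted p = 0.033, SE 0.15). The call was lost in the second fit (0.36, adjusted p = 0.102), with DESeq2 (0.41, adjusted p = 0.112), with TMM within distance classes (0.38, adjusted p = 0.0606), without control library 1 (0.23, adjusted p = 0.321) and without knockdown library 1 or 2 (adjusted p = 0.297 and 0.164). A different pair of STAT2 passed without control library 1. Contacts within the start bin, shared with APOF, were 21.6 and 22.3 CPM in the knockdown, against 20.2 and 20.4 CPM in control. They did not overlap but the difference did not pass (log2 fold change 0.11, adjusted p = 0.274, SE 0.07). Contacts inside the bin of the 3′ part, with CS, PAN2 and IL23A, were 33.7 and 39.2 CPM in the knockdown, against 38.0 and 38.4 CPM in control, and overlapped.

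ISG15, a ubiquitin-like protein that is among the genes most strongly raised by interferon, lay in a bin with 7 of its 10 listed contacts called lower in the knockdown. The gene spans 1.04 kb of chromosome 1 (1013497 to 1014540), 1.01 Mb from the chromosome end, in a bin with AGRN and HES4. Contacts within the bin were 97.4 and 104 CPM in the knockdown, against 137 and 154 CPM in control. The groups were far apart, and contacts fell by 0.53 on the log2 scale (adjusted p = 7.18e-15, SE 0.06). In the second fit they fell by 0.13 (adjusted p = 0.00258, SE 0.03). Only 0.916% of all within-bin pairs had a smaller TMM fold change, but 18.0% did with the trend removed.

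Of the 9 pairs between the ISG15 bin and others, 6 were lower in each fit and none was higher. The largest drop was 300 kb away, at the bin of DVL1, INTS11 and CPTP, with 3.46 and 2.25 CPM in the knockdown, against 4.62 and 4.97 CPM in control. Each knockdown library was below both control libraries although the knockdown libraries differed, and contacts fell by 0.75 (log2; adjusted p = 7.82e-05, SE 0.16), or by 0.82 with the trend removed (adjusted p = 3.4e-05). At 150 kb, the bin of TTLL10, a tubulin-modifying enzyme gene, had 1.97 and 2.70 CPM in the knockdown, against 3.35 and 4.37 CPM in control. Again the groups did not overlap (log2 fold change -0.72, adjusted p = 0.000968, SE 0.17).

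Toward the chromosome end, contacts with the bin of NOC2L and SAMD11 at 100 kb were 3.08 and 4.08 CPM in the knockdown, against 4.79 and 5.70 CPM in control. They fell by 0.55 (log2; adjusted p = 0.00273, SE 0.14), with no overlap between the groups. Contacts with the adjoining bins fell by less, by 0.34 on the side of C1orf159 and RNF223 (adjusted p = 0.000254) and by 0.23 on the side of KLHL17 and PERM1 (adjusted p = 0.0411), and the last of these did not pass with the trend removed (adjusted p = 0.0748). The pairs at 100 kb with C1orf159 and at 200 kb with TNFRSF4 and TNFRSF18 did not pass (log2 fold changes -0.31 and -0.25), nor did the pair at 350 kb with CCNL2 (-0.52, adjusted p = 0.0686), which passed with the trend removed (-0.61, adjusted p = 0.0391). In all 10 pairs of ISG15 the groups did not overlap, against 85.9% of the other pairs within 1 Mb and 56.1% of all pairs.

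**Figure D4:**
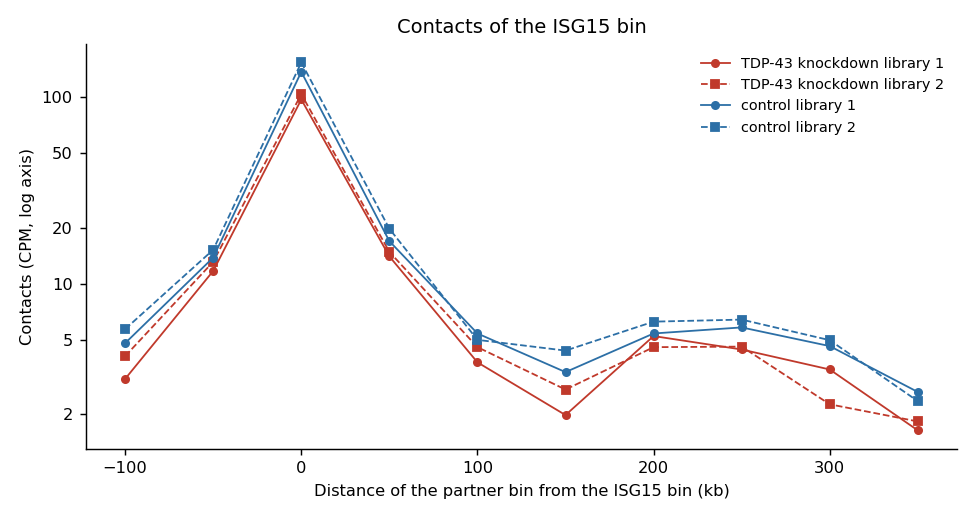
Contacts of the ISG15 bin with itself (0 kb) and with 9 other bins, in CPM on a log axis, by the distance of the partner bin in kb (negative toward the chromosome end); each line is 1 library, knockdown in red and control in blue. Both knockdown lines run below both control lines at each of the 10 points.

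The number of ISG15 calls depended on the libraries used. It was 2 of 10 without knockdown library 1, 4 without knockdown library 2, 8 without control library 1 and 3 without control library 2. Those fits keep a lone library in 1 group, whose spread is taken from the other. The contact within the bin was called in each. The surroundings of ISG15 moved with it. Of 85 other pairs with both bins within 1 Mb, 54.1% were lower and none was higher. Their median log2 fold change was -0.38, against -0.48 over the pairs of ISG15. Among the 24 of them that were contacts within a bin, 83.3% were lower. The median of these 24 was -0.51, against -0.53 for the contact within the ISG15 bin. With the trend removed 75.0% of the 24 were lower, with a median of -0.22, against -0.13 for the ISG15 bin. Over the other 319 pairs in the first 5 Mb of the chromosome 58.6% were lower. Within 5 Mb of any chromosome end 30.2% of pairs were lower and 0.87% higher, against 7.56% and 6.47% elsewhere. The 7 lower pairs of 10 stand beside these shares, and no difference of ISG15 from its region was tested.

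The start bin of ISG15 was lower in both fits, those of IRF3 and MAVS were lower with TMM scaling alone, and EIF2AK2 and ADAR were higher with the trend removed alone. IFIH1, OAS1 and STAT2 passed in neither. Which of the fits is nearer to the true contacts was not tested. The fold changes in the authors' deposited table were almost those of the second fit (r = 0.9995 across pairs, which are not independent replicates), against r = 0.925 for TMM. For the start bins of IRF3 and MAVS the authors' deposited table gives -0.04 and -0.06, and for those of EIF2AK2 and ADAR 0.17 and 0.18.

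**Figure D5:**
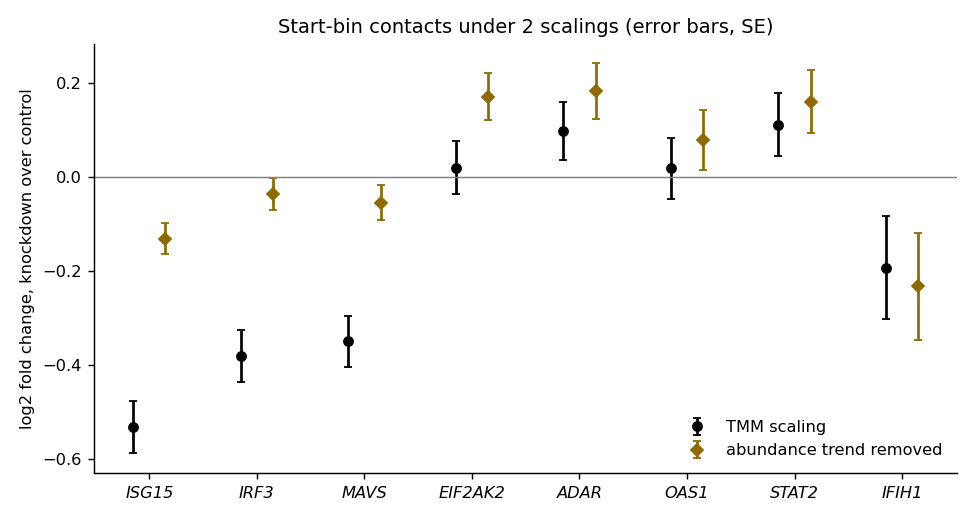
Log2 fold change (knockdown over control) of the contact within each start bin, with its SE, under TMM scaling (circles) and with the abundance trend removed (diamonds), genes ordered by control level. ISG15, IRF3 and MAVS move from -0.53, -0.38 and -0.35 to -0.13, -0.04 and -0.05, while IFIH1 hardly moves.

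Start bins were also compared for likeness over the 4 libraries, as the Euclidean distance between log2 levels after each gene's own mean was taken off, against 79 or 80 start bins of the wider pathway. MAVS and IRF3 had the same nearest gene, IRF9 (distances 0.0281 and 0.0318), and were 0.0488 from each other. ISG15 was nearest to IRF3 (0.157) and, in the wider pathway, to IRF9 (0.185). With 4 libraries in 2 groups this likeness is a description only.

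The rest of the pathway held called pairs of both directions. Of 89 further genes, 88 had a listed pair and 39 (44.3%) overlapped a called pair, 24 with only lower pairs, 12 with only higher pairs and 3 with both. The 39 became 14 without knockdown library 1 and 21 without knockdown library 2. For all 18703 protein-coding genes with a listed pair the shares with all 4 libraries were 57.4% for any, 41.6% for only lower and 11.8% for only higher. No share of all genes is given for the fits with 1 library left out. In the second fit 26 of the 88 overlapped a called pair, 14 only lower and 11 only higher, against 37.4%, 23.1% and 12.2% of all genes. Genes that are neighbours share bins, and the difference from all genes was not tested. Position was not taken into account, and 30.2% of pairs within 5 Mb of a chromosome end were lower with TMM scaling. ADARB2 and the IFITM genes, for example, lie in the first 5 Mb of their chromosomes.

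Among 18 further sensors of nucleic acids, 6 had only lower pairs, 1 had both and none had only higher ones, while the second fit gave 2 with only lower and 1 with only higher pairs. The largest change was in ADARB2, a brain relative of ADAR, at a pair 100 kb apart with 2.39 and 2.52 CPM in the knockdown, against 1.44 and 1.68 CPM in control (log2 fold change 0.65, adjusted p = 0.0206). The second fit did not call it (adjusted p = 0.0674), and it called none of the 10 other pairs of ADARB2 that were lower with TMM scaling. ADARB1, an active editing enzyme, had 4 lower pairs with TMM scaling and 1 in the second fit, the largest of -0.63 (adjusted p = 0.0186). ZBP1, a sensor of left-handed nucleic acid, had 2 in each fit, the largest of -0.34 (adjusted p = 0.0278).

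Of 12 adaptors, kinases and ubiquitin ligases, 5 had only lower pairs, 2 only higher and 1 both with TMM scaling, and in the second fit 4 had only lower and 4 only higher pairs. The higher ones were RNF135, a ubiquitin ligase of the RIG-I pathway (log2 fold change 0.77, adjusted p = 0.00831), and ZC3HAV1, the zinc-finger antiviral protein (0.76, adjusted p = 0.00627), and both passed with the trend removed. TRAF3, an adaptor downstream of MAVS, had contacts within a bin of 72.7 and 78.6 CPM in the knockdown, against 101 and 110 CPM in control. These fell by 0.48 (log2; adjusted p = 6.42e-13), or by 0.15 with the trend removed (adjusted p = 0.00213).

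Of 17 receptors, JAK kinases and transcription factors, 6 had only lower pairs, 2 only higher and 1 both with TMM scaling, and the second fit gave 4 only lower and 2 only higher. JAK1, a kinase of the interferon receptors, had 2.64 and 2.29 CPM at an adjoining pair in the knockdown, against 1.24 and 1.65 CPM in control (log2 fold change 0.77, adjusted p = 0.00589). JAK2 and TYK2, the other kinases of the list, had only lower pairs with TMM scaling (largest -0.52 and -0.31). In the second fit only JAK2 kept lower pairs. IFNLR1, a receptor chain for interferon lambda, had a higher pair of 0.73 (adjusted p = 0.00354). IFNGR2, a receptor chain for interferon gamma, had contacts within a bin of 5.66 and 5.62 CPM in the knockdown, against 8.68 and 8.30 CPM in control. These fell by 0.59 (adjusted p = 1e-05), and by 0.63 with the trend removed.

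Of 10 interferon genes, 3 had only higher pairs with TMM scaling and 1 in the second fit, and none had a lower one in either. Contacts within the bin of IFNB1, which encodes interferon beta, were 4.20 and 3.02 CPM in the knockdown, against 2.32 and 2.29 CPM in control. Both knockdown libraries were above control, and contacts rose by 0.64 (log2; adjusted p = 0.00492, SE 0.18), or by 0.57 with the trend removed (adjusted p = 0.0193). IFNL1 and IFNL2 share 1 higher pair (0.41, adjusted p = 0.0296) that the second fit did not call (adjusted p = 0.0969). These genes belong to a family of close copies, so the placing of their reads is uncertain.

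Of 32 interferon-stimulated effectors, 31 had a listed pair, 7 with only lower and 5 with only higher calls, and in the second fit 4 with only lower, 3 with only higher and 1 with both. The neighbours IFIT2 and IFIT3, which bind foreign RNA or its partners, shared the largest value, a pair of adjoining bins with 2.30 and 2.17 CPM in the knockdown, against 1.44 and 1.18 CPM in control. It rose by 0.77 (log2; adjusted p = 0.00785), or by 0.66 with the trend removed (adjusted p = 0.0388). IFI44 had a higher contact within its bin (0.47, adjusted p = 0.031) that the second fit did not call (adjusted p = 0.0889). Among the 7 genes with only lower calls, IFITM1, IFITM2 and IFITM3 share a bin. Contacts within it were 36.3 and 37.9 CPM in the knockdown, against 50.4 and 47.7 CPM in control. They fell by 0.40 (log2, adjusted p = 1.21e-09), or by 0.23 with the trend removed (adjusted p = 0.000201). The IFITM bin is 1 of 21 listed within-bin pairs within 1 Mb of IRF7, and all 21 were lower with TMM scaling. In the second fit 81.0% of the 21 were lower, with a median of -0.23.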

How the data were processed

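Micro-C libraries of SH-SY5Y cells were compared, 2 with TDP-43 knockdown and 2 control. Whether the libraries of a group are separate cultures is not stated, and p-values then reflect library spread alone, which may be technical. The authors' deposited table gives raw counts per pair of 50 kb bins; per the submitters' processing notes, HiC-Pro and hg38 were used. Per the file headers it also holds the authors' log2 fold change and log2 abundance, an F score and a p-value with its adjusted p-value. Its lowest abundance is -0.01 (log2), so rarer contacts were not analysed here.

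The quasi-likelihood fit of edgeR 4.0.16, under R 4.3.3 and with limma 3.58.1, took the counts of all 89239 pairs (TMM, filterByExpr, which removed 0 pairs, glmQLFit, glmQLFTest; Benjamini-Hochberg over the table). SE is the log2 fold change over the square root of F. The second fit used a loess offset per library (span 0.3). DESeq2 1.42.0 was an alternative. The scripts were tested on simulated counts. Gene bodies came from RefSeq GRCh38.p14; a start bin needed a strand from the promoter table or a gene within 1 bin. Python 3.11.15, numpy 2.4.6, pandas 2.3.3 and matplotlib 3.10.9 were used.

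The members and lists were chosen with earlier results of these data known. All members were named, each with its start bin and the pair of smallest p in each called direction, and up to 3 genes of each wider list by size of change; further pairs were chosen after their values were seen. Deviations of same-numbered libraries from their group means correlated with r = 0.0214 across pairs, so the numbers were not taken to pair libraries.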

Additional observations from a re-analysis of the deposited data

How the results depend on the processing

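Member pairs differing numbered 12 with TMM and edgeR, 11 lower and 1 higher. Leaving out 1 library gave 4 to 16 in all, 4 to 13 lower and 0 to 3 higher (4 without knockdown library 1, 6 without knockdown library 2). Higher pairs numbered 0 with DESeq2, with TMM within distance classes and at a threshold of 0.01, and 3 both in the trend-removed fit and in the authors' deposited table. Removing the trend lost the start-bin calls of IRF3 (-0.0363) and MAVS (-0.0547) and gained those of EIF2AK2 (0.17) and ADAR (0.18), and the authors' deposited table gave -0.0374, -0.0558, 0.17 and 0.18. Leaving out 1 library turned the uncalled start-bin values of EIF2AK2 (-0.0422 to 0.0805, with -0.0391 without control library 2) and OAS1 (-0.0099 to 0.0453). The contact within the 3′ bin of ADAR reversed to 0.14 once the trend was removed, as in the authors' deposited table. Wider list genes with a called pair numbered 39, and 14 to 50 with 1 library left out. With the replicate block 12 member pairs differed and no start-bin call changed, and the block moved no count by over 1.5 times. No filter removed any pair. The contact within the ISG15 bin was the 1 member pair called under every alternative fit. Pairs with few contacts carry the widest errors, so a value that missed the threshold does not show equal contact.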
